A study of Mus musculus with 12 samples.

Results

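Disease-associated microglia genes are a set that microglia, the resident macrophages of the brain, switch on around plaques, damaged myelin and dying cells. The 10 described here were taken by gene name from a table of 56748 genes measured in 12 mouse brain libraries, and all 10 were found: Spp1, Apoe, Lpl, Cst7, Itgax, Clec7a, Axl, Gpnmb, Cd9 and Lgals3. The libraries come from the whole brains of adult C57BL/6 mice of both sexes, collected on day 7, in 3 arms of 4 mice with 2 females and 2 males in each. The LPS+DMA arm received lipopolysaccharide (LPS, an outer membrane molecule of bacteria that triggers inflammation) at 0.5 mg/kg into the abdominal cavity daily for 7 days together with daily N,N-dimethylacetamide (DMA), a small organic solvent, at a dose that the sources used here do not give. The LPS arm received the same LPS without DMA, and the PBS arm received phosphate-buffered saline on the same schedule. No arm received DMA without LPS, the labels name no transgene, and each library is 1 mouse.

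In the disease-associated state microglia lower a homeostatic set of genes (Tmem119, P2ry12, Cx3cr1) and raise genes for lipid handling, lysosomal digestion and attachment. The receptor Trem2 and its adaptor Tyrobp are needed for the full state in mice. Several of the 10 genes are not confined to microglia in the healthy brain: Apoe is made in large amounts by astrocytes, Cd9 by oligodendrocytes and their precursors, Spp1 by some brainstem neurons and Lpl by some forebrain neurons. In whole-brain RNA, more cells of a type and more RNA per cell cannot be told apart.

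Levels are FPKM, read fragments per kilobase of gene length on a common library scale, which can be compared between genes. Depth was 27.5 to 41.4 M recovered reads per library (M, megareads). A gene was tested if it reached 0.5 FPKM in at least 2 libraries, which 19571 genes and 9 of the 10 members did; Itgax did not. Cst7 and Clec7a reached that level only in LPS libraries, so their passing already required a difference between arms, and counts over the tested members are given as descriptions. Fitted changes are on the log2(FPKM + 1) scale, which understates the change of low genes, from limma with a term for sex, and a change was called at a Benjamini-Hochberg adjusted p under 0.05 over all tested genes.

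The libraries differed in which brain regions they held, and this touches every comparison below. Gabra6, a receptor subunit of cerebellar granule cells, stood between 15.6 and 114 FPKM in 3 LPS libraries (female replicate 1 and both males) and at 74.6 FPKM in PBS female replicate 1, and at no more than 0.170 FPKM in the other 8. Slc6a5, the glycine transporter of brainstem and spinal neurons, was 19.2 to 51.7 FPKM in the same 3 LPS libraries and 0.0623 FPKM in LPS female replicate 2. A regional score, the mean log2 level of forebrain markers minus that of hindbrain and cerebellar markers, was 4.08 in LPS female replicate 2 and between -2.54 and -1.15 in the other LPS libraries, against 3.98 to 5.05 in LPS+DMA libraries and 1.47 to 4.40 in PBS libraries. LPS female replicate 2 is thus the LPS library whose regional markers lie with those of the LPS+DMA libraries. The same library was not alike in choroid plexus RNA: Ttr, a gene of that tissue, was 1244 FPKM in it. Ttr was 181 to 1765 FPKM over the LPS libraries, 1.91 to 416 FPKM in LPS+DMA libraries and 0.576 to 327 FPKM in PBS libraries. LPS+DMA male replicate 1 stood apart in glial markers, with 2.07 FPKM of the microglial gene Tmem119 and 5.61 FPKM of the astrocyte connexin Gja1, each the lowest of the 12 libraries. How far region, choroid plexus or glial content produced the values below was not tested beyond the fits named with them.

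Cst7, Clec7a, Cd9 and, at very low levels, Itgax were highest in LPS libraries. Mean FPKM in LPS+DMA brains was 10.2-fold lower than in LPS brains for Clec7a, 6.40-fold lower for Itgax, 5.36-fold lower for Cst7 and 1.82-fold lower for Cd9. Relative to PBS, mean FPKM in LPS brains was 7.33-fold higher for Cst7, 3.58-fold for Clec7a, 2.92-fold for Itgax and 1.38-fold for Cd9. Spp1 was high in 3 of 4 LPS libraries. Lpl was highest in LPS+DMA libraries, and Apoe, Axl, Gpnmb and Lgals3 gave no call in any comparison.

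**Figure D1:**
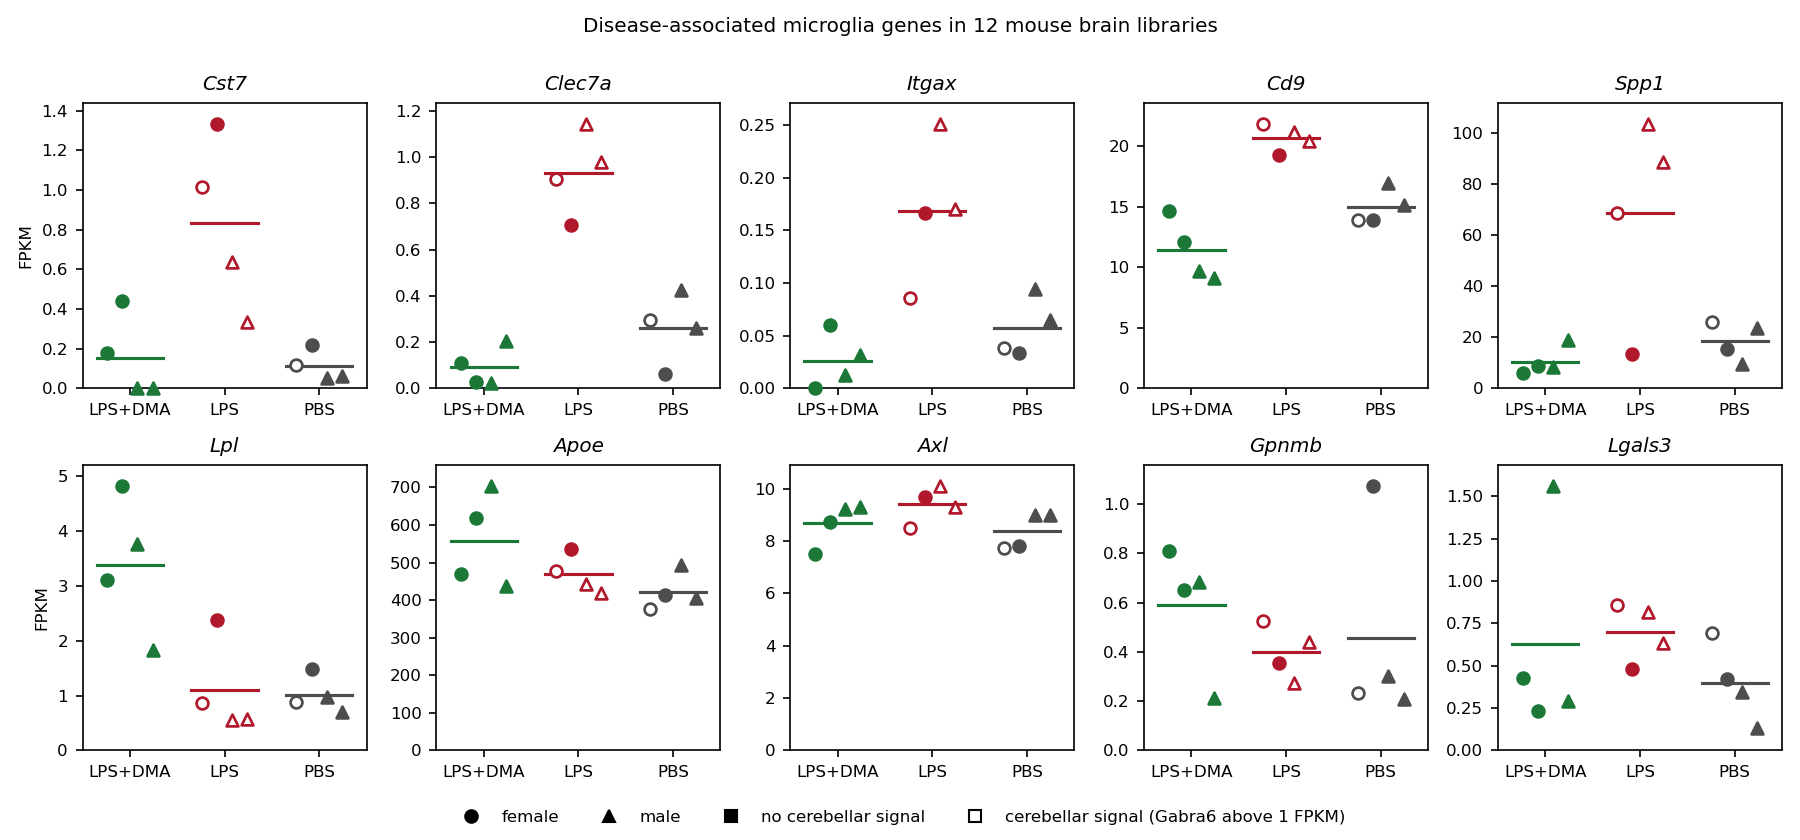
FPKM of the 10 genes (vertical axes, each from 0) in LPS+DMA, LPS and PBS libraries, with circles for females, triangles for males, open symbols for libraries with cerebellar signal and lines for arm means. Clec7a and Cd9 lie higher in all 4 LPS libraries than in every other library, Spp1 is at 68.6 FPKM or more in the 3 LPS libraries with open symbols and at 25.8 FPKM or less elsewhere, and Lpl is highest in LPS+DMA.

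Counted together, 5 of the 9 tested members were called in LPS+DMA against LPS, where 9.67% of all tested genes were called. Of these 5, 4 were lower, where 3.88% of all tested genes were called lower. Cst7 and Clec7a passed the filter only through LPS libraries, so these counts and those that follow are descriptions and no test of the set. None of the 5 was called once a covariate for the regional content of the libraries was added, as described below. Neither of the other comparisons called a member, where limma called 0.0102% of tested genes in each. In LPS against PBS, 4 members (Cst7, Clec7a, Cd9 and Spp1) had an unadjusted p under 0.05, all higher, where 11% of tested genes had such a p and 4.55% were also higher. In LPS+DMA against PBS, 3 members (Lpl, Cd9 and Apoe) had one, where 11.4% of tested genes did. Every LPS library was above every PBS library for 3 tested members (Cst7, Clec7a and Cd9), as for 3.59% of tested genes, and every LPS+DMA library was below every LPS library for 2 tested members (Clec7a and Cd9), as for 5.98%. Itgax, which was below the filter and so not among the tested members, also lay below every LPS library in every LPS+DMA library. The 2 contrasts with LPS share the LPS libraries, so the changes in opposite directions are not independent of each other.

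**Figure D2:**
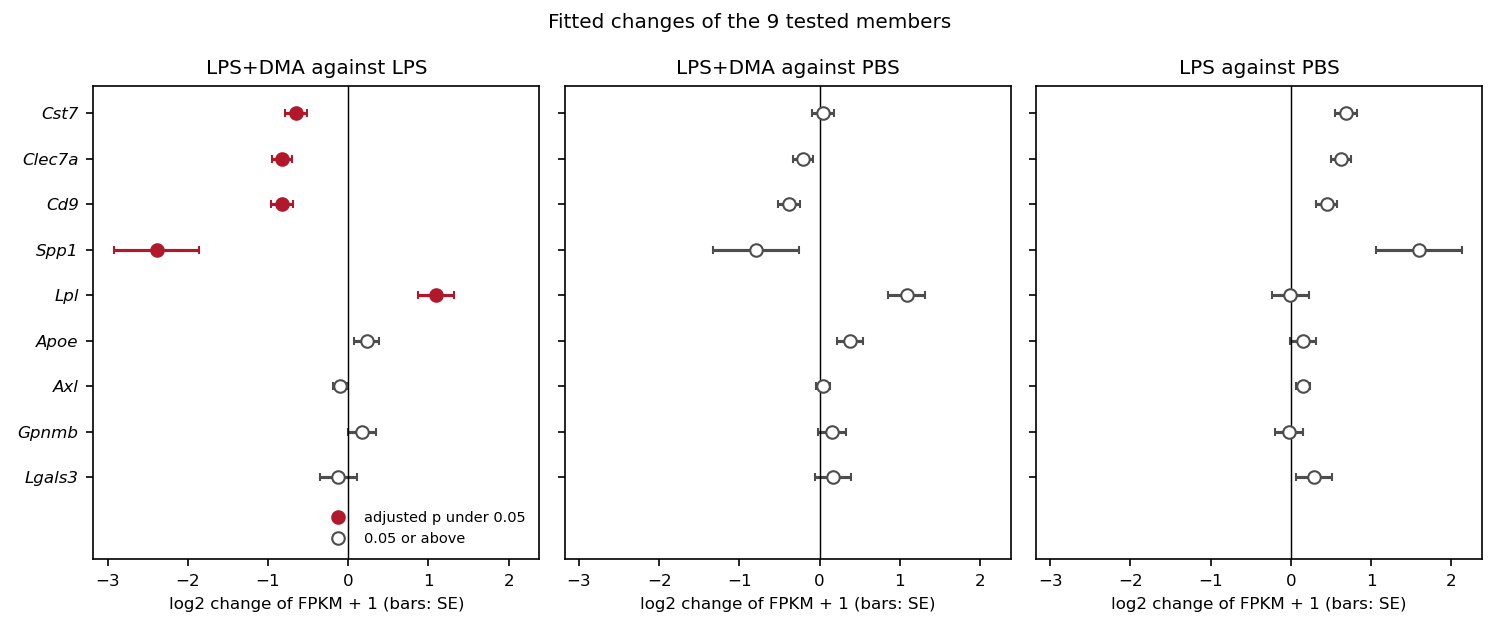
Fitted log2 changes of FPKM + 1 with SE (horizontal axes) for the 9 tested members in LPS+DMA against LPS, LPS+DMA against PBS, and LPS against PBS, filled where the adjusted p was under 0.05. Filled points appear only in LPS+DMA against LPS, for Cst7, Clec7a, Cd9 and Spp1 below 0 and Lpl above 0.

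Cst7 encodes cystatin F, an inhibitor of lysosomal cysteine proteases, and in healthy brain it is almost silent (ENSMUSG00000068129, GRCm39 chromosome 2, 150412335 to 150420864, plus strand). In LPS+DMA brains Cst7 stood at 0.178 and 0.443 FPKM in the females and 0 and 0 in the males. In LPS brains it stood at 1.02 and 1.33 FPKM in the females and 0.639 and 0.337 FPKM in the males. In PBS brains it stood at 0.117 and 0.220 FPKM in the females and 0.0540 and 0.0630 FPKM in the males. Every LPS library was above every PBS library, while LPS+DMA female replicate 2 lay above the lowest LPS library. The reads behind these values are few: 0 to 12 in LPS+DMA, 13 to 41 in LPS and 2 to 8 in PBS. A count of 0 allows up to 0.0929 FPKM in LPS+DMA male replicate 1 and 0.117 FPKM in male replicate 2 (3 reads, counting error only). The highest value of all was in LPS female replicate 2, the library without cerebellar signal. The fitted change in LPS+DMA against LPS was -0.65 ± 0.14 (log2, SE; limma adjusted p = 0.0227), and in LPS against PBS it was 0.69 ± 0.14 (adjusted p = 0.180).

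Clec7a encodes Dectin-1, a receptor for fungal beta-glucan that is a standard surface marker of the disease-associated state (ENSMUSG00000079293, chromosome 6, 129438554 to 129449742, minus strand). In LPS+DMA brains it stood at 0.111, 0.0276, 0.0231 and 0.204 FPKM (females 1 and 2, then males 1 and 2, an order kept in the lists of values that follow). In LPS brains it stood at 0.905, 0.705, 1.14 and 0.978 FPKM, and in PBS brains at 0.297, 0.0617, 0.424 and 0.259 FPKM. The 4 LPS libraries were above all 8 others, with 58 to 115 reads in LPS against 2 to 14 in LPS+DMA and 6 to 42 in PBS. Mean Clec7a was 0.0914 ± 0.0852 FPKM in LPS+DMA brains and 0.933 ± 0.182 FPKM in LPS brains (SD, n = 4 each), and the fit gave -0.82 ± 0.12 (limma adjusted p = 0.0182). Against the 0.260 ± 0.150 FPKM of PBS brains, the LPS change was 0.62 ± 0.12 (adjusted p = 0.180).

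Itgax encodes CD11c, an integrin alpha chain of dendritic cells and of activated microglia (ENSMUSG00000030789, chromosome 7, 127728719 to 127749829, plus strand). It stood at 0, 0.0606, 0.0127 and 0.0320 FPKM in LPS+DMA brains and at 0.0860, 0.167, 0.251 and 0.170 FPKM in LPS brains. In PBS brains it stood at 0.0383, 0.0339, 0.0942 and 0.0647 FPKM. All LPS+DMA libraries lay below all LPS libraries, and LPS overlapped PBS through LPS female replicate 1 alone. Itgax was too low for the fit across genes, so its mean FPKM was compared with a two-sided exact permutation test over the 70 splits of 8 libraries, whose smallest possible p is 0.0286. LPS+DMA differed from LPS by -0.142 FPKM (exact permutation p = 0.0286, the smallest possible; without any 1 LPS+DMA library, exact p = 0.0571), LPS differed from PBS by 0.111 FPKM (exact p = 0.0571; without LPS female replicate 1, 0.138 FPKM and exact p = 0.0286), and LPS+DMA differed from PBS by -0.0314 FPKM (exact p = 0.143). Itgax read counts were 0 (which allows up to 0.0183 FPKM) to 8 in LPS+DMA, 14 to 46 in LPS and 6 to 17 in PBS.

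Cd9 encodes a tetraspanin, a membrane scaffold that microglia raise in the disease-associated state and that myelin-forming cells also carry (ENSMUSG00000030342, chromosome 6, 125437229 to 125471754, minus strand). In LPS+DMA brains Cd9 stood at 14.6, 12.1, 9.68 and 9.14 FPKM. LPS brains had 21.8, 19.3, 21.2 and 20.4 FPKM, and PBS brains had 13.9, 13.9, 16.9 and 15.1 FPKM. The LPS libraries were again above all others and close together, and 3 of the 4 LPS+DMA libraries lay below every PBS library. Mean Cd9 was 11.4 ± 2.52 FPKM in LPS+DMA brains and 20.7 ± 1.09 FPKM in LPS brains (SD, n = 4 each), a fitted change of -0.83 ± 0.14 (limma adjusted p = 0.0186). Against PBS, the change was 0.44 ± 0.14 in LPS (adjusted p = 0.316) and -0.38 ± 0.14 in LPS+DMA (adjusted p = 0.381). The summed level of 7 oligodendrocyte markers was 497 to 1045 FPKM in LPS+DMA libraries, 1095 to 2062 FPKM in LPS libraries and 561 to 1526 FPKM in PBS libraries. Its LPS+DMA and LPS ranges did not overlap, as was so for Cd9. Its LPS and PBS ranges overlapped, where those of Cd9 did not. The part of these cells in the Cd9 values was not tested. The annotation places 2 noncoding genes on the opposite strand within Cd9, both at no more than 0.342 FPKM.

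The promoters of these 4 genes are shown because all 4 genes were highest in LPS libraries. They are RefSeq windows of 300 bases, 250 before and 50 after a transcription start, in build GRCm38.p6, which is not the build of the expression table. For Clec7a, for which 2 overlapping windows are listed, the first is printed. Capitals mark matches to any of 6 motifs searched on both strands: GAGGAAGT for the myeloid factor PU.1, TGANTCA for AP-1, CACGTG for MiT family factors such as Tfeb, GGANTTTCC for NF-kB, TTCNNNGAA for STAT factors, and TATAAA for the TATA box.
Cst7 promoter (chr2:150570165-150570464, plus strand): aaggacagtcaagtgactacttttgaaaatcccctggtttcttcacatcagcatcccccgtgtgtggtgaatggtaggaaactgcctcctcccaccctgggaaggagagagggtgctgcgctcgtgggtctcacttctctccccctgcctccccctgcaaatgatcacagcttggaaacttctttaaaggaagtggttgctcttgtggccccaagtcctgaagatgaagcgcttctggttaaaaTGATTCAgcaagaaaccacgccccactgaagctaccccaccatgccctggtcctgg
Itgax promoter (chr7:128129300-128129599, plus strand): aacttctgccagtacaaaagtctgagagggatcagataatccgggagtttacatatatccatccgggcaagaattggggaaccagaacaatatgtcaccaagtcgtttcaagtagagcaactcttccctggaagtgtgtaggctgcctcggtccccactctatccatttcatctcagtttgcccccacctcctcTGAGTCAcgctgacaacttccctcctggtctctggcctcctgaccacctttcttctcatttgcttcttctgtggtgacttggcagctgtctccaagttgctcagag
Clec7a promoter (chr6:129472730-129473029, minus strand): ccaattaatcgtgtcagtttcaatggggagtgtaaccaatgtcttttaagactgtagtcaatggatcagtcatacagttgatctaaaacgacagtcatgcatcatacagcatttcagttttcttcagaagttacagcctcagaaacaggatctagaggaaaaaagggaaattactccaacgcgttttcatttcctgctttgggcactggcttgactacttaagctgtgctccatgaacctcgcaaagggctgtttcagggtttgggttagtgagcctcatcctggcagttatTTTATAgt
Cd9 promoter (chr6:125494711-125495010, minus strand): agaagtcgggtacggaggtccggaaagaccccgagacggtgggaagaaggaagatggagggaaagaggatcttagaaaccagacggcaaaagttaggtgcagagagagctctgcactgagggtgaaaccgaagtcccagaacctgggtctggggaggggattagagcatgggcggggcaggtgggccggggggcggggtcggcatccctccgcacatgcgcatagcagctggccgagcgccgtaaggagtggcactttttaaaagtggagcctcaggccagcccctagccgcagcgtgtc
The AP-1 letters occur once in the Cst7 window, as TGATTCA from base -6 relative to the start, and once in the Itgax window, as TGAGTCA from base -56. The background is 32851 RefSeq promoter windows of this length, called all windows here, with those of a single chromosome left out. Of these, 7.81% hold an AP-1 match. In the Clec7a window the single match is the reverse TATA letters, inside the transcript from base 43, and the Cd9 window holds none of the 6 motifs. Of the 9 members with a listed window (Lpl has none), Spp1 holds the PU.1 letters, GAGGAAGT, from base -113, which 3.20% of all windows hold, and Gpnmb holds an AP-1 match, TGACTCA, from base 9. Spp1 and the second of 3 listed Apoe windows hold the TATA letters, as do 13.6% of all windows. None of the members' windows matched the NF-kB, STAT or MiT letters, which 1.25%, 8.30% and 7.15% of all windows hold. No motif was shared by all 4 genes, and a match or its absence says nothing about binding in these brains.

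Spp1 encodes osteopontin, a secreted ligand of integrins and of CD44 (ENSMUSG00000029304, chromosome 5, 104582984 to 104588916, plus strand). LPS+DMA brains had 5.90, 8.59, 8.45 and 18.8 FPKM of Spp1. LPS brains had 68.6, 13.3, 104 and 88.6 FPKM, and PBS brains had 25.8, 15.3, 9.42 and 23.6 FPKM. Spp1 was therefore high in the 3 LPS libraries with cerebellar and brainstem signal, and LPS female replicate 2 lay within the range of both other arms. The fitted change was -2.39 ± 0.54 in LPS+DMA against LPS (limma adjusted p = 0.0255), 1.59 ± 0.54 in LPS against PBS (adjusted p = 0.331), and -0.80 ± 0.54 in LPS+DMA against PBS (adjusted p = 0.573). With the regional score as a covariate, the change was -0.48 in LPS+DMA against LPS and 0.14 in LPS against PBS, with adjusted p = 0.925 and 1. Without the 4 libraries with cerebellar signal, which leaves the LPS arm with 1 library assumed to vary like the others, these changes were -0.66 and 0.12.

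The coding genes whose pattern over the 12 libraries was nearest to that of Spp1 were Esyt1, Rln3 and Calca. Nearness is the root mean square difference of standardised log2(FPKM + 1), where 0 is identical, and the 3 distances were 0.215, 0.216 and 0.219. Rln3 encodes relaxin-3, a neuropeptide of a brainstem nucleus, and Calca the precursor of calcitonin gene-related peptide. Rln3 stood at 0 to 0.970 FPKM in LPS+DMA libraries, at 8.79, 0, 18.2 and 8.95 FPKM in LPS libraries, and at 0.420 to 1.74 FPKM in PBS libraries. The same LPS female library that was low in Spp1 had no Rln3 reads.

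**Figure D3:**
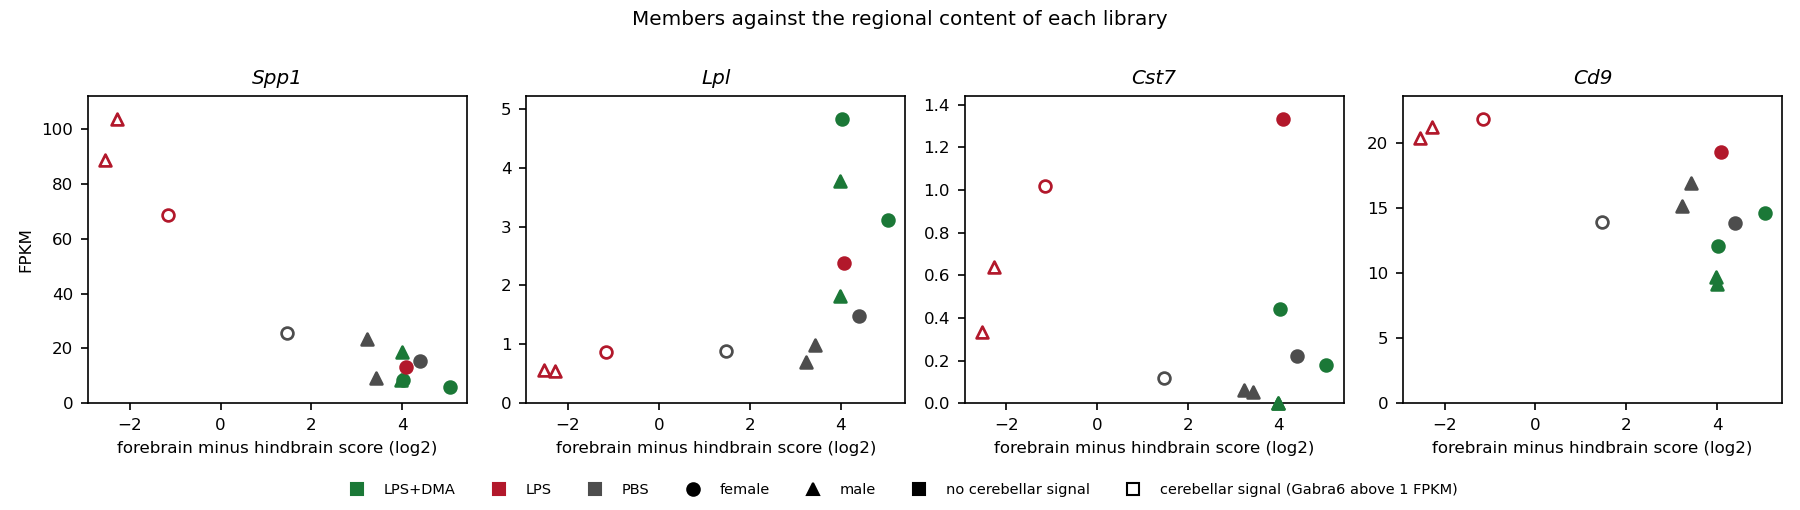
FPKM of Spp1, Lpl, Cst7 and Cd9 (vertical axes) against the forebrain minus hindbrain score of each library (horizontal axis, log2 units, higher for more forebrain RNA), with colours for arms and open symbols for cerebellar signal. Spp1 is high at the left where the score is below 0, Lpl is high at the right, and LPS female replicate 2, at a score of 4.08, has the highest Cst7 and a Cd9 level above every LPS+DMA and PBS library.

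The receptors and partners of osteopontin and of CD11c did not all follow Spp1. Of 9 tested, 3 were called lower and 0 higher in LPS+DMA against LPS, with a median change of -0.27 against 0.010 over all tested genes. These were Itgam (CD11b, -0.64 ± 0.14, adjusted p = 0.0259), Itgb2 (the beta chain shared by CD11b and CD11c, -0.55, adjusted p = 0.0326) and Itgb5 (the beta chain of an osteopontin-binding integrin, -0.86, adjusted p = 0.0345). Cd44 gave -0.27 (adjusted p = 0.229). In LPS against PBS and in LPS+DMA against PBS none of the 9 was called, with 4 and 1 at an unadjusted p under 0.05.

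Lpl encodes lipoprotein lipase, which releases fatty acids from lipoproteins and belongs to the lipid-handling genes of activated microglia (ENSMUSG00000015568, chromosome 8, 69333143 to 69360100, plus strand). Its direction in LPS+DMA against LPS was opposite to that of the genes above. LPS+DMA brains had 3.11, 4.83, 3.77 and 1.83 FPKM, LPS brains had 0.867, 2.38, 0.556 and 0.573 FPKM, and PBS brains had 0.889, 1.48, 0.984 and 0.705 FPKM. Every LPS+DMA library was above every PBS library, and only LPS female replicate 2 reached into the LPS+DMA range. Lpl rose by 1.10 ± 0.23 in LPS+DMA against LPS (limma adjusted p = 0.0220), and the change against PBS was 1.09 ± 0.23 (adjusted p = 0.290). In LPS against PBS it was -0.01 ± 0.23 (adjusted p = 0.994). The nearest coding gene in pattern was Gng7, a G protein subunit abundant in the striatum, at a distance of 0.247, which was 27.8 to 156 FPKM in LPS+DMA, 9.10 to 53.6 FPKM in LPS and 12.7 to 24.6 FPKM in PBS. With the regional covariate the change of Lpl in LPS+DMA against LPS was 0.51 (adjusted p = 0.892), while its change against PBS was 0.95 (adjusted p = 0.294).

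Apoe, the main lipid carrier of the brain, was by level the most abundant of the 10 (ENSMUSG00000002985, chromosome 7, 19430034 to 19433113, minus strand). LPS+DMA brains had 469, 619, 704 and 438 FPKM, LPS brains had 477, 536, 444 and 418 FPKM, and PBS brains had 377, 413, 494 and 407 FPKM. The arms overlapped, and the highest value was in LPS+DMA male replicate 1, the library with the lowest microglial markers. The changes were 0.23 ± 0.16 in LPS+DMA against LPS, 0.38 ± 0.16 in LPS+DMA against PBS and 0.15 ± 0.16 in LPS against PBS, with limma adjusted p = 0.368, 0.423 and 0.765. Without LPS+DMA male replicate 1 the first was 0.091 and the second 0.24.

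Of 15 tested lipoprotein receptors, cholesterol exporters and lipase partners, 1 was called higher and 1 lower in LPS+DMA against LPS, and the median change was 0.016. Abcg1, a sterol exporter, rose by 0.49 ± 0.13 (adjusted p = 0.0425). None was called in the other comparisons, with 2 at an unadjusted p under 0.05 in each.

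Axl encodes a receptor tyrosine kinase for clearance of dying cells (ENSMUSG00000002602, chromosome 7, 25456698 to 25488130, minus strand), and it varied little. It stood at 7.50 to 9.32 FPKM in LPS+DMA, 8.52 to 10.1 FPKM in LPS and 7.72 to 9.01 FPKM in PBS. The change was -0.11 ± 0.09 in LPS+DMA against LPS and 0.15 ± 0.09 in LPS against PBS (limma adjusted p = 0.472 and 0.572). Its relatives Mertk and Tyro3 rose in LPS+DMA against LPS, by 0.72 ± 0.14 (adjusted p = 0.0213) and 0.57 ± 0.15 (adjusted p = 0.0351). Mertk stood at 9.82 to 16.3 FPKM in LPS+DMA, above all 4 LPS libraries (5.25 to 8.95 FPKM) and all 4 PBS libraries (6.81 to 8.56 FPKM). Gas6, their shared ligand, fell by 0.65 ± 0.14 (adjusted p = 0.0247), and so did Plcg2, a signalling enzyme of microglial receptors, by 0.52 ± 0.13 (adjusted p = 0.0310). Syk, the kinase below Dectin-1, gave -0.14 (adjusted p = 0.492). These 4 calls were among 9 tested partners of Clec7a and Axl, none of which was called in the other comparisons, where 5 in LPS against PBS and 1 in LPS+DMA against PBS had an unadjusted p under 0.05.

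Gpnmb, a lysosomal glycoprotein (ENSMUSG00000029816, chromosome 6, 49013480 to 49047863, plus strand), stood at 0.809, 0.653, 0.684 and 0.212 FPKM in LPS+DMA brains. LPS brains had 0.525, 0.354, 0.274 and 0.439 FPKM, and PBS brains had 0.233, 1.07, 0.303 and 0.210 FPKM. The arms overlapped, with PBS female replicate 2 the highest of the 12. The changes were 0.17 ± 0.18 in LPS+DMA against LPS and -0.02 ± 0.18 in LPS against PBS (limma adjusted p = 0.549 and 0.977).

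Lgals3, which encodes galectin-3, a sugar-binding protein of damaged lysosomes (ENSMUSG00000050335, chromosome 14, 47605208 to 47623617, plus strand), stood at 0.425, 0.235, 1.56 and 0.290 FPKM in LPS+DMA brains. LPS brains had 0.857, 0.483, 0.819 and 0.632 FPKM, and PBS brains had 0.694, 0.423, 0.344 and 0.134 FPKM. Outside LPS+DMA male replicate 1, every LPS+DMA library lay below every LPS library. The changes were -0.12 ± 0.23 in LPS+DMA against LPS and 0.29 ± 0.23 in LPS against PBS (limma adjusted p = 0.755 and 0.676), and without that library the first was -0.38.

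Of 14 tested genes for cystatin targets, lysosome regulators and relatives of Cd9 and Lgals3, 6 were called lower and 0 higher in LPS+DMA against LPS, with a median of -0.49. Lgmn, the protease legumain, fell by 0.54 ± 0.11 (adjusted p = 0.0225), Lgals1, galectin-1, fell by 1.02 ± 0.22 (adjusted p = 0.0227), and the tetraspanin Cd81 fell by 0.49 ± 0.12 (adjusted p = 0.0294). Ctsc, the protease that cystatin F restrains, was also called lower (-0.48, adjusted p = 0.0461). In LPS against PBS the median of these 14 was 0.28 with 0 called and 7 at an unadjusted p under 0.05, and in LPS+DMA against PBS it was -0.13 with 0 called and 0 at an unadjusted p under 0.05.

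The 5 calls were lost without single LPS libraries, while the estimates kept their direction. When LPS female replicate 1 or either LPS male library was left out, none of the 5 was called in LPS+DMA against LPS. Without LPS female replicate 2, 5 members were called in that comparison, and 3 (Clec7a, Cst7 and Spp1) were called in LPS against PBS, with adjusted p = 0.0287, 0.0466 and 0.0127. That fit keeps only the LPS libraries with cerebellar signal, whose regional scores lay between -2.54 and -1.15. The share of all tested genes called in it is not given here. With the regional covariate, limma called no gene of the 19571 in LPS+DMA against LPS, so the calls of the other genes named here were lost as well, while 1148 genes, 3 members among them, had an unadjusted p under 0.05. The point estimates under that covariate were -0.89 for Cst7, -0.68 for Clec7a, -0.77 for Cd9, -0.48 for Spp1 and 0.51 for Lpl. Only LPS female replicate 2 among the LPS libraries, at a score of 4.08, lay near the LPS+DMA libraries (3.98 to 5.05). The log2(FPKM + 1) scale also understates the changes of Cst7 and Clec7a. The part of region in the change of each gene was not tested beyond this fit. Over every alternative run, the estimate nearest to 0 was -0.57 for Cst7, -0.53 for Clec7a, -0.60 for Cd9, -0.48 for Spp1 and 0.51 for Lpl. With covariates for choroid plexus and red cells, 0 genes were called as well (790 genes, 3 members among them, at an unadjusted p under 0.05), and the same 5 estimates were -0.64, -0.53, -0.60, -1.76 and 0.61.

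Levels of the 4 LPS-high genes were also set against the sum of 12 homeostatic microglia genes, a ratio chosen after the values had been seen and given without a test. That sum was 53.4 to 113 FPKM in LPS+DMA libraries, 133 to 186 FPKM in LPS libraries and 97.0 to 127 FPKM in PBS libraries. Clec7a was 0.0266% to 0.211% of it in LPS+DMA, 0.380% to 0.861% in LPS and 0.0487% to 0.351% in PBS, so that the LPS libraries remained above all others. Cst7 was 0% to 0.426% in LPS+DMA, 0.243% to 0.763% in LPS and 0.0447% to 0.174% in PBS, with LPS above PBS and overlapping LPS+DMA. Cd9 was 9.44% to 18.1% in LPS+DMA, 10.4% to 16.4% in LPS and 10.95% to 14.3% in PBS, and the arms overlapped. For Itgax, LPS+DMA (up to 0.0583%) stayed below LPS (0.0645% to 0.189%), which overlapped PBS (0.0268% to 0.0781%).

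The wider disease-associated set, 28 further genes of which 26 were tested, gave 0 called higher and 13 called lower in LPS+DMA against LPS, with a median change of -0.38. Lyz2, a lysozyme gene whose reads may be shared with its near-identical copy Lyz1, fell by 2.25 ± 0.18 (adjusted p = 0.00103), with 4.56 to 9.29 FPKM in LPS+DMA libraries and 32.4 to 38.9 FPKM in LPS libraries. Tyrobp fell by 1.23 ± 0.13 (adjusted p = 0.00436) and Cd52, a surface glycoprotein of leukocytes, by 1.29 ± 0.18 (adjusted p = 0.0172). Trem2 fell by 0.86 ± 0.18 (adjusted p = 0.0219), with 0.617 to 1.57 FPKM in LPS+DMA libraries, 2.08 to 3.42 FPKM in LPS libraries and 1.52 to 2.37 FPKM in PBS libraries. In LPS against PBS only Lyz2 was called (1.93 ± 0.18, adjusted p = 0.00673), and 12 of the 26 had an unadjusted p under 0.05, all higher, with a median change of 0.34. The Lyz2 call did not hold in every alternative: limma called 0 genes in LPS against PBS with the regional covariate (827 genes at an unadjusted p under 0.05), with the choroid plexus and red cell covariates (933 genes), and without LPS female replicate 1, LPS male replicate 1 or PBS female replicate 2 (1206, 1470 and 1279 genes). In LPS+DMA against PBS none was called, 7 had an unadjusted p under 0.05, and the median was -0.06.

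Homeostatic microglia genes were not called lower in LPS brains, where Cst7 and Clec7a were high. Of 12 tested, 0 were called in LPS against PBS, with a median of 0.27 and 2 at an unadjusted p under 0.05, both higher. In LPS+DMA against LPS, 3 were called lower and 0 higher, with a median of -0.65. Among the 3 were the lectin Siglech (-0.86 ± 0.20, adjusted p = 0.0270) and the growth factor receptor Csf1r (-0.61 ± 0.15, adjusted p = 0.0307). In LPS+DMA against PBS, 0 were called, with a median of -0.52 and 2 at an unadjusted p under 0.05. LPS+DMA male replicate 1 had the lowest sum of the 12 genes, at 53.4 FPKM against 96.9 to 113 FPKM in the other LPS+DMA libraries.

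**Figure D4:**
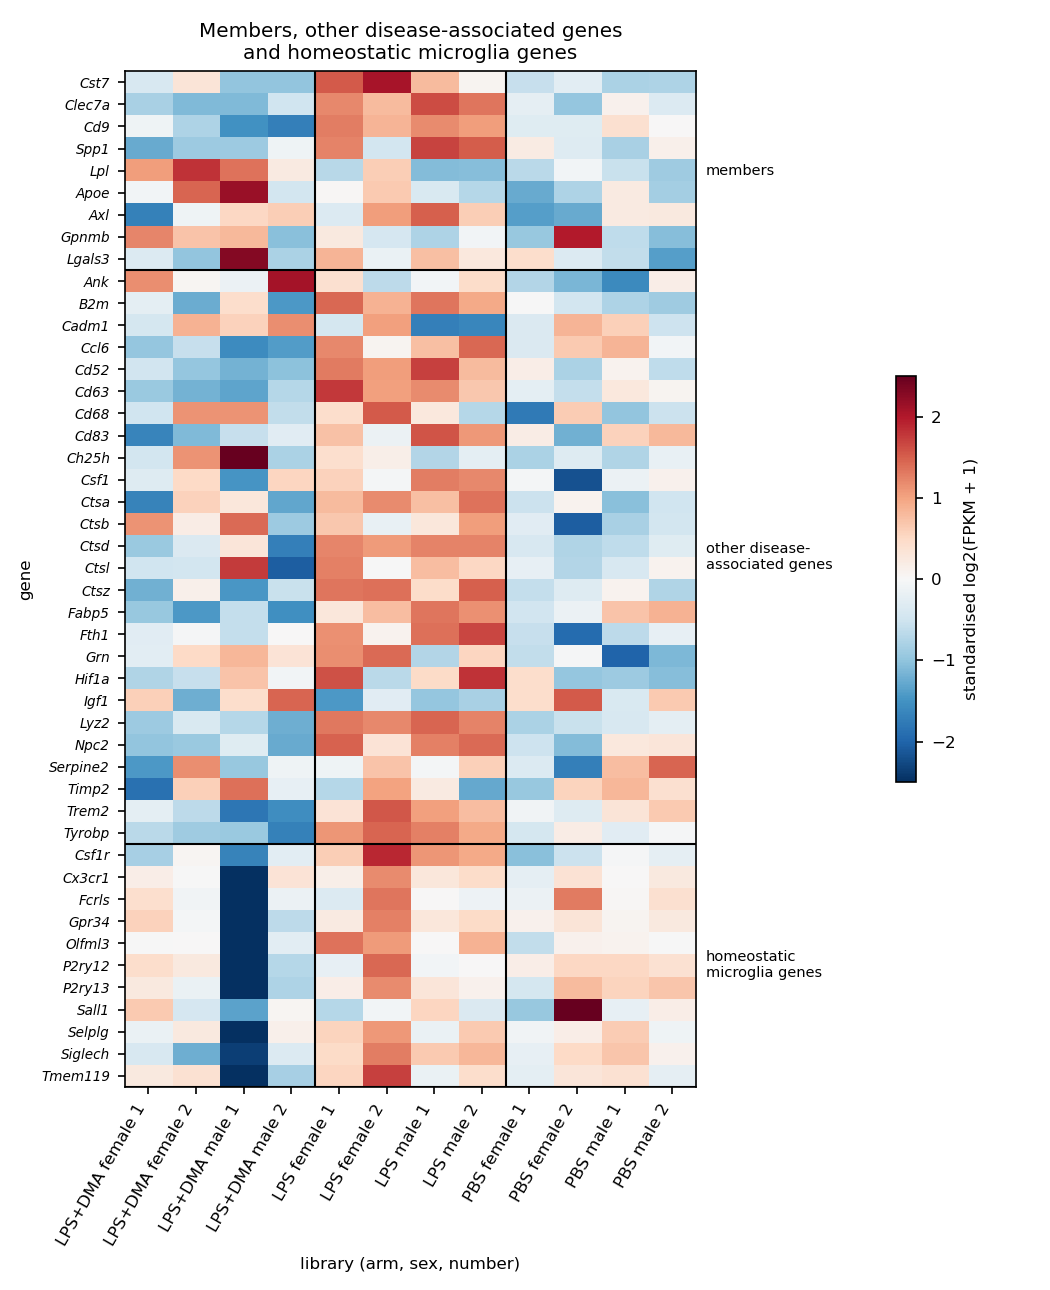
Standardised log2(FPKM + 1) of the 9 tested members, 26 other disease-associated genes and 11 of the 12 homeostatic microglia genes (rows) in the 12 libraries (columns, LPS+DMA, LPS, PBS), red above and blue below each gene's mean, with colours limited at 2.5 units. Cst7, Clec7a, Cd9, Lyz2, Tyrobp and Trem2 are above their means in all 4 LPS columns, Lpl in the LPS+DMA columns, and the 11 homeostatic genes are at their lowest in LPS+DMA male replicate 1.

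Among the members, the nearest pair in pattern was Clec7a and Cd9 at a distance of 0.513, followed by Spp1 and Clec7a at 0.558 and Apoe and Lpl at 0.649, while Spp1 and Lpl were farthest apart at 1.81. Over all tested coding genes, the nearest to Clec7a were C3, the central complement component, at 0.215, E2f6 at 0.276 and Ostf1 at 0.284. C3 stood at 0.125 to 0.441 FPKM in LPS+DMA libraries, 0.854 to 1.40 FPKM in LPS libraries and 0.0316 to 0.487 FPKM in PBS libraries. The nearest to Cd9 were Ripk1 at 0.256, Mrpl42 at 0.285 and Bst2, an interferon-induced membrane protein, at 0.293. Cst7 had Ly6g6d at 0.373 as its nearest gene, and Axl had none closer than Arhgap30 at 0.478. Apoe was nearest to Oaz2 at 0.225, Gpnmb to Hmgn1 at 0.292 and Lgals3 to Polr1f at 0.329.

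Markers of blood-borne and border myeloid cells were read beside the members, since Itgax, Cst7 and Clec7a are not specific to microglia. Of 4 monocyte markers, Plac8, Ccr2 and Ly6c2 stayed under 0.5 FPKM in all 12 libraries, and the summed level of the 4 was 0.211 to 1.44 FPKM in LPS+DMA, 0.171 to 2.33 FPKM in LPS and 0.0862 to 0.342 FPKM in PBS. The 7 markers of border macrophages summed to 2.23 to 5.96 FPKM in LPS+DMA, 3.91 to 6.38 FPKM in LPS and 2.24 to 3.997 FPKM in PBS, with Ms4a7 under 0.5 FPKM throughout and 0 of 6 tested genes called. At that low level Ms4a7 was highest in LPS, with 0.252 to 0.348 FPKM. It was 0.0411 to 0.114 FPKM in LPS+DMA and 0.0517 to 0.158 FPKM in PBS. Among the 6 tested, every LPS library was above every PBS library for 2 (Mrc1 and Cd163) and below for 0. All tested genes gave 3.59% above. Of 4 dendritic cell markers, Xcr1 was under 0.5 FPKM throughout, and the sum was 1.68 to 3.79 FPKM in LPS+DMA, 2.90 to 8.32 FPKM in LPS and 2.83 to 7.21 FPKM in PBS. The 2 tested, Flt3 and Zbtb46, make up most of that sum, and 0 were called. Cd209a was instead highest in PBS, at 0.233 to 0.510 FPKM. It was at most 0.0331 FPKM in LPS and 0.0771 FPKM in LPS+DMA. The 6 neutrophil markers summed to 3.92 to 16.6 FPKM in LPS+DMA, 2.24 to 53.4 FPKM in LPS and 0.292 to 1.43 FPKM in PBS, with Ly6g under 0.5 FPKM throughout. Red cell markers summed to 29.0 to 296 FPKM in LPS+DMA, 243 to 946 FPKM in LPS and 71.1 to 116 FPKM in PBS. The part of these cells in the members' values was not tested beyond the covariate fit above.

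The change of a member did not differ between the sexes past the threshold. For LPS against PBS, limma called 0 genes for a difference between females and males, with 491 genes and 0 members at an unadjusted p under 0.05. For LPS+DMA against LPS it called 0, with 1008 genes and 1 member at an unadjusted p under 0.05: the Cd9 estimate was -0.59 in females and -1.07 in males (unadjusted p = 0.0426, adjusted p = 0.853). With 2 libraries per arm and sex, the female LPS pair also held the library without cerebellar signal, and for Spp1 the LPS against PBS change was 0.59 in females and 2.60 in males (adjusted p = 1).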

How the data were processed

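Whole-brain messenger RNA was sequenced in 12 mice. The authors deposited gene FPKM values. Per the submitters' processing notes, which give no role or order, the build is GRCm39 and the tools are STAR, GATK, HISAT2 2.2.1, fastp, edgeR 4.0.16, featureCounts 2.0.6 and DESeq2 1.42.0. The labels' protocols describe both a strand-specific and an unstranded preparation without saying which was used, so reads of genes overlapping on opposite strands may be mixed.

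Members were matched by gene name, and all 10 were found. FPKM steps came out as whole reads (tolerance 0.1) in 100% of values tested, those up to 1000 reads, which gave depths; low values carry counting error. Tests used limma 3.58.1 in R 4.3.3 on log2(FPKM + 1), keeping genes with at least 0.5 FPKM in at least 2 libraries, with arm and sex over 12 libraries, moderated variances following the mean and robust to outlying genes. Differences between sexes used means per arm and sex. The fit was tested on simulated data. Itgax was compared by an exact permutation test. Sequences are from the RefSeq promoter table.

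Members and gene lists were chosen with earlier results of these data known. Genes named are the members, up to 3 of smallest p per list and comparison, the 3 nearest coding genes per member and 8 fixed content markers. Trem2, Cd44, Syk, Cd209a and the markers given as under 0.5 FPKM were named after their values were seen. Alternatives covered pseudocount, filter, scaling, variance model, samples, covariates and each library left out; leaving out the cerebellar libraries or LPS+DMA male replicate 1 for the counts without overlap was added after the data were seen. Values of a few genes within the lists are not reported here. P-values measure the spread between mice.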

Additional observations from a re-analysis of the deposited data

Results flagged for a closer look

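Within each arm of 4, the gap between the highest or lowest library and its nearest neighbour was divided by the arm's range for each of the 10 genes, which gave 30 sets of values; values above Dixon's critical value are listed, and chance gives about 1 in 20. Lgals3 in LPS+DMA male replicate 1 stood at 1.56 FPKM, with a ratio of 0.856, and that library also had the lowest Tmem119 and Gja1. Lpl in LPS female replicate 2 stood at 2.38 FPKM, with a ratio of 0.830, and that library had a forebrain minus hindbrain score of 4.08 (log2), against -2.54 to -1.15 in the other LPS libraries. Gpnmb in PBS female replicate 2 stood at 1.07 FPKM, with a ratio of 0.893. The part of tissue content in these values was not tested.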

How the results depend on the processing

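The count of members called in LPS+DMA against LPS, 5 in the analysis as reported, was 2 with no filter, 3 with a filter of 1 FPKM in 4 libraries (which drops Cst7 and Clec7a), and 0 with only the 2 arms compared, with the regional covariate, with the choroid plexus and red cell covariates, and without the 4 libraries with cerebellar signal. It ranged from 0 to 5 when each library was left out, being 4 without LPS+DMA female replicate 1 or LPS+DMA male replicate 1, each time through Spp1 (adjusted p = 0.0525 and 0.0535), and 0 without any of LPS female replicate 1, LPS male replicate 1 and LPS male replicate 2. The limma count over all genes, 1892 as reported, was 83 with no filter, 5 with only the 2 arms, 0 with either set of covariates and 5 without the cerebellar libraries. For LPS against PBS the count was 0 to 3 over left-out libraries and 0 in every other alternative run, and for LPS+DMA against PBS it was 0 in all. The 3 tested members whose LPS libraries all lay above all PBS libraries became 7 without the cerebellar libraries. The LPS arm is 1 library in that setting. The 2 whose LPS+DMA libraries all lay below all LPS libraries became 4 in that setting and 3 without LPS+DMA male replicate 1. With fewer libraries, arms fail to overlap more easily, and the shares of all tested genes in these settings are not given here. The higher counts therefore cannot be read as stronger separation. Fits of limma's voom on recovered reads called 5, 0 and 0 members in LPS+DMA against LPS, LPS against PBS and LPS+DMA against PBS. A replicate block also gave 5, 0 and 0; the shared numbers name different mice, and deviations of same-numbered libraries correlated between -0.071 and 0.452, so they do not pair the libraries. Both counts for differences between the sexes were 0 in all alternatives run.

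No called change of a member reversed in any alternative run. The uncalled changes of members that reversed were the following. Lpl in LPS against PBS was 0.014 with plain total scaling, 0.44 with the regional covariate, 0.64 with the choroid plexus and red cell covariates, 0.45 without the cerebellar libraries, and -0.21 to 0.11 over left-out libraries. Gpnmb in LPS against PBS was 0.058 with a pseudocount of 0.1, 0.40 with the choroid plexus and red cell covariates, 0.11 by voom, and -0.14 to 0.14 over left-out libraries. In LPS+DMA against LPS, Apoe was -0.0027 with the regional covariate and -0.0072 without the cerebellar libraries, Gpnmb was -0.21 with the choroid plexus and red cell covariates, and Lgals3 was 0.11 with the regional covariate. In LPS+DMA against PBS, Cst7 was -0.051 with a pseudocount of 0.1, -0.019 with the regional covariate, -0.011 without the cerebellar libraries, -0.24 by voom and -0.026 to 0.089 over left-out libraries; Axl was -0.086 with plain total scaling, and Lgals3 was -0.094 to 0.29 over left-out libraries, negative without LPS+DMA male replicate 1. Under plain total scaling the median change of all genes in LPS+DMA against LPS was -0.11, against 0.010 as reported. The causes were not tested. Depth limits Cst7, Clec7a and Itgax, which rest on at most 115 reads in any library, and with 4 libraries against 4 the exact test of Itgax cannot go below p = 0.0286; leaving out any LPS+DMA library moved its LPS+DMA against LPS p to 0.0571, and leaving out LPS female replicate 1 moved its LPS against PBS p to 0.0286.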
